A study of Bos taurus with 10 samples.

Results

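Solute carriers are membrane proteins that move sugars, ions, nucleosides, nucleotide sugars, vitamins and other small solutes into, out of or within cells. The genes described here are those whose symbol starts with SLC and a digit, without the mitochondrial SLC25A family and without 13 amino acid and metal carriers (SLC3A2, SLC7A5, SLC7A8, SLC7A1, SLC7A11, SLC1A4, SLC1A5, SLC38A2, SLC1A1, SLC6A14, SLC39A8, SLC39A14 and SLC30A1). They comprise 141 genes on 200 probe sets, of 9155 genes with a single gene symbol on 13292 probe sets, and of 179 genes in all that carry an SLC symbol. Of the 141 genes, 88 had a probe set above the filter on low intensity and 53 did not, against 7055 genes above the filter in all. The names cover 41 carrier families, 35 of them with a measured member. SLC4A1AP and SLC7A6OS carry such a symbol because they are named after a carrier that they bind or lie opposite to in the genome, so they are described apart from the substrate groups, although the counts of members include them.

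The study asked what an E. coli infection of 1 gland does to the other glands of the same udder. RNA of mammary gland tissue from 10 cows was hybridized to Affymetrix Bovine Genome arrays, 1 array per cow. In the neighboring group (5 arrays), another gland of the cow had received E. coli 1303 at 500 CFU in 2 ml saline for 24 h, and the sampled glands were pools of saline-treated and untreated tissue, except neighboring 4, which was a single untreated gland. The control group (5 arrays) was tissue from untreated glands of healthy cows, hybridized a second time for this comparison per the titles. All cows were primiparous German Holstein Friesian animals in mid-lactation, synchronised with cloprostenol and milked out with oxytocin. The study pooled glands of a cow, although its sample list does not mark control 3 and control 5 as pools. It set aside neighboring 5 as a biological outlier and control 3 as a technical outlier. In its clustering, neighboring 5 was placed with the controls. Comparisons here likewise use 4 against 4 arrays, and values of all 10 arrays are shown.

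In lactation the secretory cell of the mammary gland takes up glucose across its basal membrane and passes it to the Golgi, where it is joined with galactose from UDP-galactose to give lactose, the main osmotic solute of milk. Phosphate, calcium, zinc and citrate follow secretory vesicles or apical carriers into milk, while sodium, potassium and chloride are set by pumps and cotransporters. Nucleotide sugar carriers of the SLC35 family load the Golgi and the endoplasmic reticulum for the glycosylation of milk proteins and membrane proteins.

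All 10 arrays carried the signature of lactating gland. LALBA, the lactose synthase cofactor, was between 14.20 and 14.42 on every array. The summed level of 10 luminal epithelial markers was 16.60 to 16.65 in the neighboring arrays of the fit and 16.59 to 16.64 in controls. That sum is set mostly by CSN2, CSN3 and LALBA, with control means of 14.68, 14.55 and 14.38, near the highest value of 14.86. It therefore cannot tell whether the epithelial share was equal. Values are log2 intensities from robust multi-array average (RMA), and changes are neighboring minus control on the log2 scale with limma's SE. Array medians were 6.25 to 6.27 and arrays correlated at 0.971 to 0.992. The hybridization controls are RNAs of bacterial and phage genes spiked in for every array. They averaged 10.20 to 10.43 in the 4 neighboring arrays of the fit and 10.42 to 10.84 in the 4 control arrays.

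Between neighboring and healthy glands, 10 of the 88 measured genes rose (11.4%) and 18 fell (20.5%) at an adjusted p under 0.05, and 60 did not pass. Without the pair of genes only named after a carrier, 9 of 86 rose and 18 fell. Over all 7055 genes tested, 20.2% rose and 11.5% fell. The median change of the members was -0.06, beside 0.06 over all genes, and the median size of change was 0.27 beside 0.25. The changes were therefore of usual size, with fewer members up and more down than among all genes, a description to which no test is attached. At the thresholds of the study, an adjusted p under 0.01 and over 2-fold, 6 members passed (6.82%) beside 3.26% of all genes. These were SLC34A2, SLC17A5, SLC38A3 and SLC35C1, which fell, and SLC18A2 and SLC11A1, which rose. Both of the latter had control means under the filter level of 5.71 (5.41 and 5.35) and passed the filter through the neighboring arrays, so the filter had a part in this share. The tissue is a mixture of cell types, so fewer cells of a type and less RNA per cell cannot be told apart.

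The size of these counts depends on which arrays enter and on whether the hybridization controls enter as a covariate. On all 10 arrays, 4 members rose and 8 fell, beside 8.26% and 5.02% of all genes, and 0 passed the thresholds of the study (4 were over 2-fold at an unadjusted p under 0.05 by limma). The 16 calls lost there had adjusted p-values of 0.0541 to 0.175. Leaving out control 5 or neighboring 4 left 2 members past the thresholds of the study, and leaving out control 5 left 9 members lower. With the mean of the hybridization controls as a covariate, 0 members rose and 2 fell by limma (5 and 14 at an unadjusted p under 0.05), beside 1.36% and 0.624% of all genes. These 2 were SLC4A7 and SLC17A5, and the other 26 called members had adjusted p-values of 0.055 to 0.669. The covariate took the change of SLC5A1 to 0.15, of SLC27A6 to 0.46, of SLC38A7 to 0.77, of SLC12A4 to 0.20 and of SLC5A2 to -0.19. Larger falls stood there for SLC12A2 (-0.68) and SLC17A9 (-2.02), without passing. All 28 called members kept their direction in both fits, and the part of the hybridization controls in the changes was not tested further. These controls nearly separate the groups of the fit, so the fit with the covariate cannot tell their part from that of the group.

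**Figure D1:**
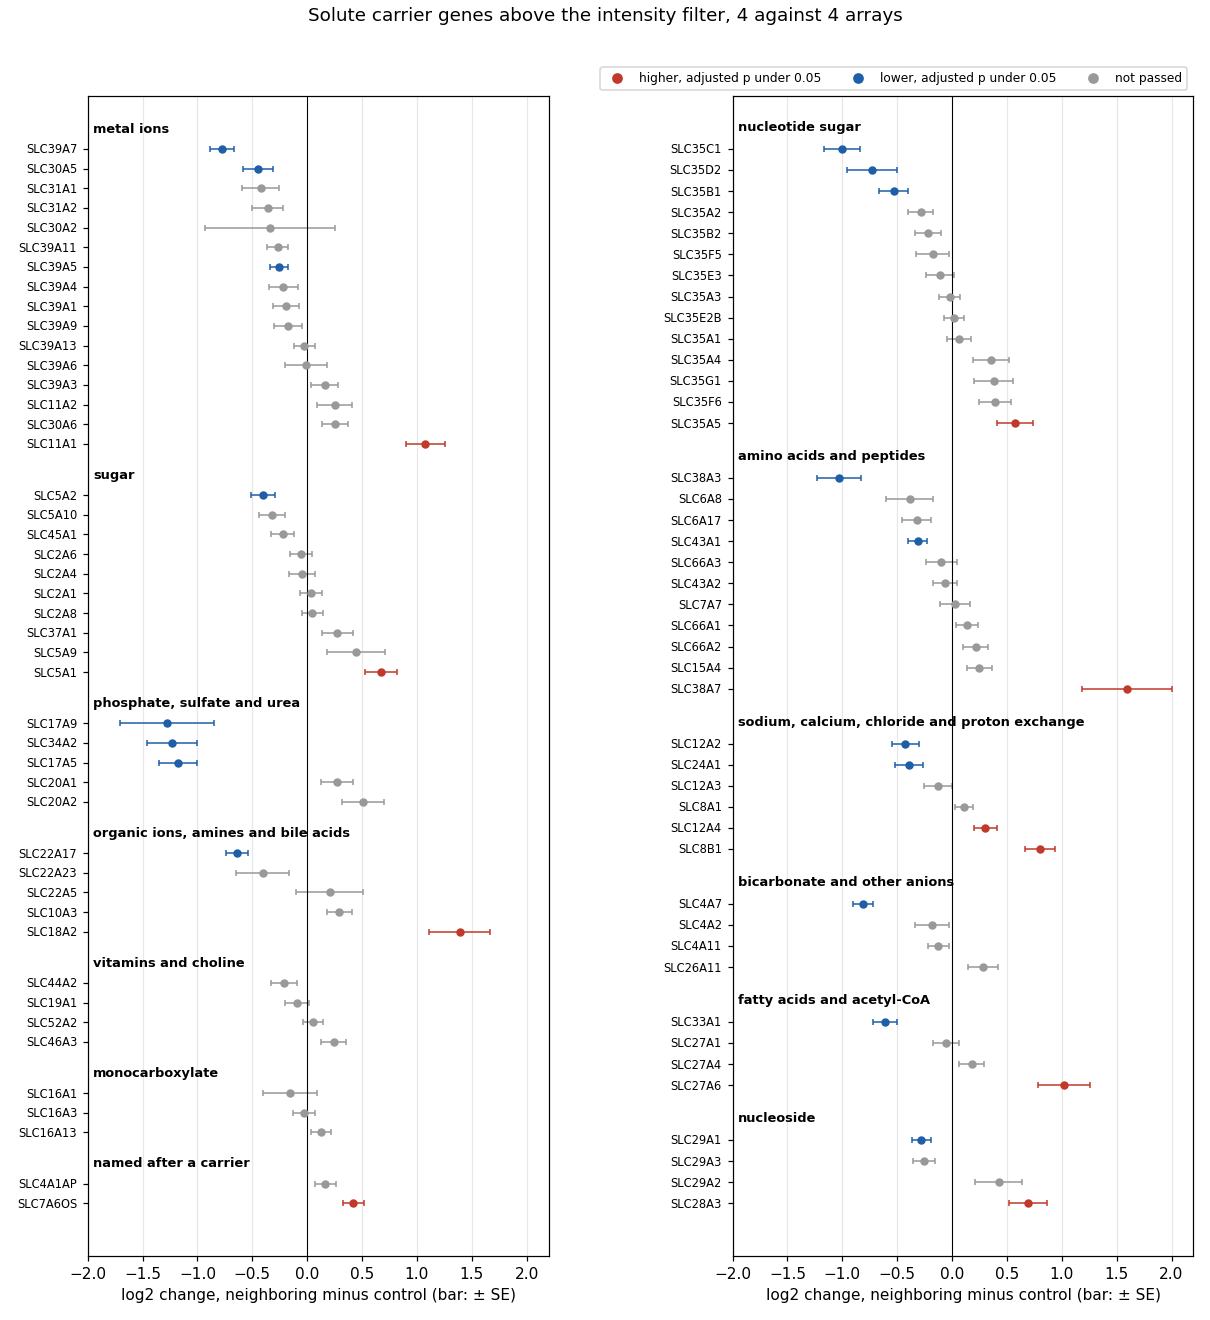
Log2 change with its SE (x axis, neighboring minus control, 4 against 4 arrays) of each of the 88 measured solute carrier genes, grouped by substrate, with genes that rose in red, fell in blue and did not pass in grey. Falls stand together among phosphate and vesicular anion carriers (3 of 5), while the SLC2A sugar carriers lie between -0.06 and 0.05.

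Among sugar carriers, 1 of 10 measured genes rose, 1 fell and 8 did not pass, with a median change of -0.01. SLC5A1, the sodium-driven glucose and galactose carrier, rose, whereas the facilitative glucose carriers of the SLC2 family showed changes near 0. SLC5A1 read 10.10, 9.70, 9.94, 9.71 and 9.09 in neighboring 1 to 5 and 8.91, 9.13, 9.35, 9.56 and 9.15 in control 1 to 5. The 4 neighboring arrays of the fit lay above all controls and neighboring 5 lay among them. The increase was 0.67 ± 0.15 (SE, 4 against 4 arrays, 1.60-fold, adjusted p = 0.00823), on all 10 arrays it was 0.49 with an adjusted p of 0.09, and with the spiked-in controls as a covariate 0.15 with an adjusted p of 0.669. SLC5A2, a kidney-type glucose carrier of the same family, fell by 0.40 ± 0.11 (adjusted p = 0.0189). Leaving out control 5 or neighboring 3 took its adjusted p to 0.0504 or 0.0512.

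SLC2A1, the main basal glucose carrier of the gland, read 10.08, 10.02, 10.15, 10.14 and 9.90 in the neighboring arrays and 9.89, 10.06, 10.30, 10.05 and 10.23 in the controls, with wholly overlapping groups. Its change was 0.04, with a 95% interval of -0.18 to 0.25 on the log2 scale. SLC2A8, a carrier of internal membranes, changed by 0.05 (95% interval -0.17 to 0.26). SLC2A4, the insulin-responsive carrier, and SLC2A6 changed by -0.05 ± 0.12 and -0.06 ± 0.10 and did not pass. SLC2A3 lay under the filter, with values of 5.18 to 5.80 in the neighboring arrays and 4.98 to 5.27 in the controls. Over the 8 fits that each left out 1 array, the adjusted p was 0.507 to 0.913 for SLC2A1 and 0.556 to 0.959 for SLC2A8.

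Carriers grouped by family number under phosphate, sulfate and urea held the largest falls: 3 of 5 measured genes fell, 0 rose at an adjusted p under 0.05, and the median change was -1.17. The falls were in SLC34A2, the sodium-phosphate cotransporter of apical membranes, SLC17A5, the lysosomal carrier of sialic acid, and SLC17A9, a vesicular nucleotide carrier. Of these, SLC34A2 is the one known for phosphate in milk-secreting and other epithelia. The other phosphate carriers measured, SLC20A1 and SLC20A2, had changes of 0.27 ± 0.15 and 0.51 ± 0.19 and did not pass (adjusted p = 0.177 and 0.0637).

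SLC34A2 read 7.28, 6.43, 6.17, 6.40 and 7.89 in neighboring 1 to 5, and 7.84, 7.86, 8.55, 7.39 and 8.12 in control 1 to 5. The 4 neighboring arrays of the fit were below every control, neighboring 1 closest, and neighboring 5 was within the control range. The gene fell by 1.23 ± 0.23 (2.35-fold, adjusted p = 0.0039), and on all 10 arrays by 1.12 (adjusted p = 0.0428). SLC17A5 showed 8.62, 8.07, 7.97, 7.75 and 9.44 in the neighboring arrays and 9.33, 9.06, 9.54, 9.45 and 9.27 in the controls. Again the 4 arrays of the fit did not reach the controls and neighboring 5 did. This gene fell by 1.17 ± 0.17 (2.26-fold, adjusted p = 0.00119) and remained called with the spiked-in controls as a covariate (-1.45, adjusted p = 0.0467).

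The values of SLC17A9 overlapped. They were 7.09, 6.44, 6.17, 6.11 and 6.94 in the neighboring arrays and 7.09, 6.63, 8.03, 8.61 and 8.60 in the controls, so that control 1 and control 2 stood at the neighboring level. The mean fell by 1.28 ± 0.43 (2.43-fold, adjusted p = 0.0463). The call was lost without control 4 (adjusted p = 0.116), control 5 (0.118), neighboring 2 (0.08), neighboring 3 (0.108) or neighboring 4 (0.101).

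**Figure D2:**
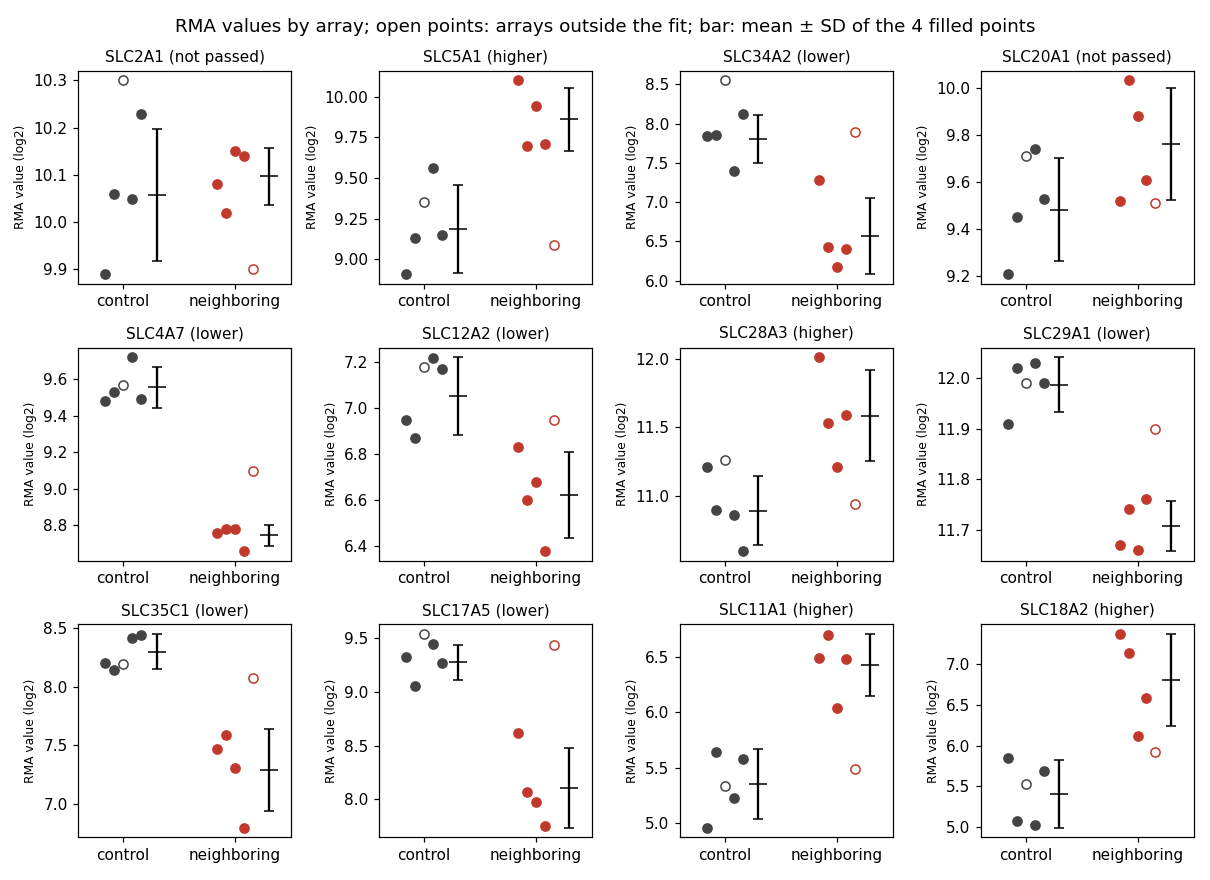
RMA values (log2) of 12 solute carrier genes by array, control in grey and neighboring in red, with the mean ± SD of the 4 arrays per group in the fit and the set-aside arrays (control 3, neighboring 5) as open points. SLC4A7 and SLC35C1 have all 5 neighboring arrays below all controls, SLC2A1 has overlapping groups, and in SLC34A2 and SLC17A5 neighboring 5 lies at the control level.

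Among carriers of bicarbonate and other anions, 1 of 4 measured genes fell and 0 rose. This was SLC4A7, an electroneutral sodium bicarbonate cotransporter that counters intracellular acid, with the smallest adjusted p of the 88 genes. It read 8.76, 8.78, 8.78, 8.66 and 9.10 in the neighboring arrays and 9.48, 9.53, 9.57, 9.72 and 9.49 in the controls. All 5 neighboring arrays were below all 5 controls, with neighboring 5 nearest to them. SLC4A7 fell by 0.81 ± 0.09 (1.76-fold, adjusted p = 0.000389), and passed on all 10 arrays (-0.74, adjusted p = 0.00696). In the fit that carried the spiked-in controls as a covariate it fell by 1.00 (adjusted p = 0.0177). SLC4A2, SLC4A11 and SLC26A11 had changes of -0.18, -0.13 and 0.28 and did not pass.

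Carriers of sodium, calcium, chloride and protons moved in both directions: 2 of 6 rose and 2 fell. SLC12A2, the sodium-potassium-chloride cotransporter that loads cells with chloride, fell by 0.43 ± 0.12 (adjusted p = 0.0268), with values of 6.83, 6.60, 6.68, 6.38 and 6.95 in the neighboring arrays and 6.95, 6.87, 7.18, 7.22 and 7.17 in the controls. The 4 neighboring arrays of the fit were below all controls and neighboring 5 was among them. The call did not hold without control 4 (adjusted p = 0.0745), control 5 (0.0685), neighboring 2 (0.0526), neighboring 3 (0.051) or neighboring 4 (0.0677). Another measured probe set of SLC12A2 changed by -0.28 and did not pass (adjusted p = 0.0962). SLC12A4, a potassium-chloride cotransporter that runs outward, rose by 0.30 ± 0.10 (adjusted p = 0.0465), a call held only without neighboring 2 among the 8 fits that each left out 1 array (up to 0.116 in the others).

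SLC8B1, the sodium-calcium exchanger of mitochondria, rose. Its values were 8.18, 8.24, 7.97, 8.10 and 7.40 in the neighboring arrays and 7.42, 7.64, 7.56, 7.13 and 7.08 in the controls, and neighboring 5 alone fell into the control range. The change was 0.80 ± 0.13 (1.74-fold, adjusted p = 0.00231), and 0.61 on all 10 arrays (adjusted p = 0.0408). SLC24A1, a sodium-calcium-potassium exchanger known from photoreceptors, fell by 0.40 ± 0.13 (adjusted p = 0.0397). Its call was lost without control 1, control 4, control 5, neighboring 2, neighboring 3 or neighboring 4 (adjusted p 0.0568 to 0.11).

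Of 16 measured metal ion carriers, 1 rose and 3 fell, and 12 had changes below 0. Their median was -0.21, beside 0.06 over all genes. The falls were in zinc carriers: SLC39A7, which releases zinc from the endoplasmic reticulum and Golgi, SLC30A5, which loads zinc into the secretory pathway, and SLC39A5, a carrier of the cell surface. In the SLC39 family of zinc importers 8 of 9 measured changes were below 0 on the brightest probe sets, although only 2 passed. SLC39A6 (-0.01) and SLC39A13 (-0.02) were near 0. Other measured probe sets of SLC39A6, SLC39A9 and SLC39A13 changed by 0.06, 0.04 and 0.18, so the signs do not show a fall of the whole family. SLC39A7 read 8.23, 7.83, 7.91, 7.90 and 8.85 in the neighboring arrays and 8.69, 8.67, 8.98, 8.75 and 8.86 in the controls. It fell by 0.77 ± 0.11 (1.71-fold, adjusted p = 0.00103), and neighboring 5 was at the control level. SLC30A5 fell by 0.45 ± 0.14 (adjusted p = 0.0317), and its neighboring 1 value of 8.54 overlapped the control value of 8.52. The SLC30A5 call was lost without control 2, control 4, control 5, neighboring 3 or neighboring 4 (adjusted p 0.0508 to 0.0891). SLC39A5 fell by 0.26 ± 0.08 (adjusted p = 0.0426), a call lost in each of the 8 fits without 1 array (0.0529 to 0.104). The copper carriers SLC31A1 and SLC31A2 had changes of -0.42 ± 0.17 and -0.36 ± 0.14 and did not pass. SLC30A2, a zinc carrier of secretory vesicles known from milk zinc, had a change of -0.34 with an SE of 0.59, so its direction was not resolved.

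The metal carrier that rose was SLC11A1, which moves divalent metals out of the phagosomes of macrophages and neutrophils. It read 6.49, 6.70, 6.04, 6.48 and 5.49 in neighboring 1 to 5 and 4.96, 5.64, 5.34, 5.23 and 5.58 in control 1 to 5. The 4 arrays of the fit were above all controls, and neighboring 5 was among them. The gene rose by 1.08 ± 0.18 (2.11-fold, adjusted p = 0.00211), and by 0.89 on all 10 arrays (adjusted p = 0.0298). All controls were under the filter level of 5.71, where RMA compresses changes, and the gene entered the fit through the neighboring arrays, so the fold is uncertain. Neutrophil and macrophage markers stood as follows in the same arrays. Both measured neutrophil markers rose (S100A8 by 2.42 and S100A12 by 1.98), their summed level being 8.20 to 9.68 in the neighboring arrays of the fit and 6.30 to 6.78 in the controls. Their control means of 5.59 and 5.54 were also under the filter level. Both markers therefore entered the fit through the neighboring arrays, and the filter had a part in this count. FCGR3A and MMP9 lay under the filter, and CSF3R and CXCR2 were not measured under these symbols. Of 5 macrophage markers, 0 rose and MSR1 fell by 1.897, with summed levels of 10.29 to 11.01 beside 10.68 to 10.87. In neighboring 5, which is outside the fit, S100A8 was 8.23 and SLC11A1 was 5.49. The part of these cells in the SLC11A1 change was not tested.

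SLC18A2, the vesicular monoamine carrier, was the other gene that rose past the thresholds of the study. It read 7.37, 7.14, 6.12, 6.58 and 5.92 in the neighboring arrays and 5.85, 5.08, 5.53, 5.03 and 5.69 in the controls. All 5 neighboring arrays were above all controls, neighboring 5 by the smallest margin. The change was 1.39 ± 0.28 (2.62-fold, adjusted p = 0.00519), and 1.19 on all 10 arrays (adjusted p = 0.028). The control mean of 5.41 was under the filter level, so this gene too entered through the neighboring arrays and its fold is uncertain. In the same group of organic ion, amine and bile acid carriers, SLC22A17, known as a receptor of the iron-siderophore binding protein lipocalin 2, fell. Its values were 6.87, 7.02, 6.87, 7.08 and 7.31 in the neighboring arrays and 7.51, 7.75, 7.46, 7.52 and 7.61 in the controls, without overlap over all 10 arrays. It fell by 0.64 ± 0.10 (1.56-fold, adjusted p = 0.00155). SLC22A5, the carnitine carrier, changed by 0.21 ± 0.30 on its brightest probe set, while its other measured probe set changed by 0.75 (adjusted p = 0.0395), and the gene is therefore uncertain.

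Of 4 measured nucleoside carriers, 1 rose and 1 fell. SLC28A3, a sodium-driven concentrative carrier, rose, and SLC29A1, an equilibrative carrier, fell, while SLC29A2 (0.42 ± 0.21) and SLC29A3 (-0.26 ± 0.10) did not pass. SLC28A3 read 12.01, 11.53, 11.21, 11.59 and 10.94 in the neighboring arrays and 11.21, 10.90, 11.26, 10.86 and 10.60 in the controls. Neighboring 3 and neighboring 5 lay within the control range. The change was 0.69 ± 0.18 (1.61-fold, adjusted p = 0.0153), held in each fit without 1 array, and 0.49 on all 10 arrays (adjusted p = 0.103). Other measured probe sets of SLC28A3 changed by 0.65 and 0.46 and did not pass (adjusted p = 0.0903 and 0.0652). SLC29A1 read 11.67, 11.74, 11.66, 11.76 and 11.90 in the neighboring arrays and 11.91, 12.02, 11.99, 12.03 and 11.99 in the controls. All 5 neighboring arrays were lower, but the fall was small at 0.28 ± 0.08 (1.21-fold, adjusted p = 0.0308). Leaving out control 2, control 4, control 5 or neighboring 3 took its adjusted p to between 0.0603 and 0.0795.

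The SLC35 nucleotide sugar family was the largest, with 14 measured genes, of which 1 rose and 3 fell, at a median of -0.07. SLC35C1, the Golgi carrier of GDP-fucose, read 7.47, 7.59, 7.31, 6.80 and 8.07 in the neighboring arrays and 8.20, 8.14, 8.19, 8.41 and 8.44 in the controls. All 5 neighboring arrays were below all controls, neighboring 5 by a narrow margin. It fell by 1.00 ± 0.16 (adjusted p = 0.00207), just past the fold threshold of the study, and by 0.83 on all 10 arrays (adjusted p = 0.0276). SLC35B1, a carrier of the endoplasmic reticulum, read 8.0, 8.13, 8.02, 8.26 and 8.78 in the neighboring arrays and 8.32, 8.61, 8.83, 8.69 and 8.92 in the controls, with neighboring 5 among them. It fell by 0.53 ± 0.13 (adjusted p = 0.0136). SLC35D2, a Golgi carrier of UDP-sugars, fell by 0.73 ± 0.23 (adjusted p = 0.0358), but neighboring 3 at 8.80 and neighboring 5 at 8.97 were at the control level of 8.59 to 9.39. The SLC35D2 call was lost without control 4, control 5, neighboring 1, neighboring 2 or neighboring 4 (adjusted p 0.0521 to 0.0941).

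SLC35A5, a member with a less certain substrate, rose by 0.57 ± 0.17 (adjusted p = 0.0274), and the call was lost without neighboring 1, neighboring 3 or neighboring 4 (0.0566 to 0.0669). Its other measured probe sets changed by 0.27 and -0.12 and did not pass, and the mean of its probe sets changed by 0.24 (adjusted p = 0.156), so this gene is uncertain. SLC35A2, which brings UDP-galactose to the Golgi for lactose synthesis, read 8.67, 8.39, 8.46, 8.47 and 8.95 in the neighboring arrays and 8.72, 8.58, 8.95, 8.88 and 8.96 in the controls. Its change was -0.29 ± 0.11 (adjusted p = 0.0765, and 0.0418 without neighboring 1). Another measured probe set of SLC35A2 changed by -0.13 and did not pass (adjusted p = 0.475). SLC35A1 and SLC35A3, carriers of CMP-sialic acid and UDP-N-acetylglucosamine, had changes of 0.06 and -0.02.

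Of 11 measured genes placed by family number among amino acid and peptide carriers, 1 rose and 2 fell. SLC38A3, a glutamine and histidine carrier of the cell surface, read 7.74, 7.17, 6.85, 6.80 and 8.02 in the neighboring arrays and 8.01, 8.01, 8.48, 8.27 and 8.39 in the controls. The 4 neighboring arrays of the fit lay below all controls, with neighboring 5 at the lower edge of the controls. The gene fell by 1.03 ± 0.20 (2.04-fold, adjusted p = 0.00418). SLC38A7, a lysosomal glutamine and asparagine carrier of the same family, rose by 1.59 ± 0.41 (3.02-fold, adjusted p = 0.0164). On all 10 arrays its change was 1.25 (adjusted p = 0.0636), and with the spiked-in controls as a covariate 0.77 (adjusted p = 0.565). It spread widely within the neighboring group (SD 1.06 over the 4 arrays of the fit), from 7.38 and 7.39 in neighboring 5 and neighboring 2 through 8.22 in neighboring 4 to 9.14 and 9.82 in neighboring 3 and neighboring 1, beside 6.85 to 7.51 in the controls. SLC43A1, a carrier of branched-chain amino acids, fell by 0.31 ± 0.09 (adjusted p = 0.0235). Without control 1, control 2, control 5, neighboring 2 or neighboring 4 its adjusted p was 0.0551 to 0.0576.

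Among carriers of fatty acids and acetyl-CoA, 1 of 4 rose and 1 fell. SLC27A6, a fatty acid transport protein of the lactating gland, read 8.32, 7.93, 8.34, 8.69 and 7.15 in the neighboring arrays and 7.29, 6.97, 7.47, 8.03 and 6.91 in the controls. Control 4 at 8.03 lay above neighboring 2, and neighboring 5 lay among the controls. The change was 1.02 ± 0.24 (2.03-fold, adjusted p = 0.011), beyond the fold threshold of the study but short of its p threshold. On all 10 arrays it was 0.75 (adjusted p = 0.0914), and with the spiked-in controls as a covariate 0.46 (adjusted p = 0.537). SLC33A1, the acetyl-CoA carrier of the endoplasmic reticulum, read 7.81, 7.84, 7.72, 7.76 and 8.60 in the neighboring arrays and 8.22, 8.25, 8.78, 8.45 and 8.65 in the controls. It fell by 0.61 ± 0.11 (1.53-fold, adjusted p = 0.00341), with neighboring 5 far above the other 4, and its change on all 10 arrays was -0.52 (adjusted p = 0.0676). SLC27A1 and SLC27A4 had changes of -0.06 and 0.18 and did not pass.

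Monocarboxylate carriers and carriers of vitamins and choline held 3 and 4 measured genes, and 0 of them passed in limma's test on the brightest probe set. SLC16A1, which carries lactate and ketone bodies, changed by -0.16 with a 95% interval of -0.70 to 0.38. SLC16A3, the lactate exporter of glycolytic cells, changed by -0.03 (95% interval -0.25 to 0.19). SLC19A1, SLC44A2, SLC46A3 and SLC52A2, which carry folate, choline, lysosomal solutes and riboflavin, ranged from -0.21 to 0.24 on their brightest probe sets. Another measured probe set of SLC52A2 changed by 0.33 (adjusted p = 0.0241), so this gene is uncertain. Of the genes named after a carrier, SLC7A6OS rose by 0.42 ± 0.10 (adjusted p = 0.00981) and SLC4A1AP changed by 0.17.

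Genes that work with these carriers are given beside 20.2% of all genes that rose and 11.5% that fell. The lists are short, and their counts are not set apart from these shares. Of 8 measured genes of lactose synthesis, HK1, a hexokinase, rose by 0.42 ± 0.12 (adjusted p = 0.0278), 0 fell, and the median was -0.10. LALBA and B4GALT1, the subunits of lactose synthase, had changes of -0.09 ± 0.08 and 0.02 ± 0.11. Of 8 measured ion pump genes, 2 rose and 2 fell. The sodium pump subunits moved oppositely, ATP1B1 falling by 0.80 ± 0.17 (adjusted p = 0.00682) and ATP1B3 rising by 0.55 ± 0.15 (adjusted p = 0.0204), while the vacuolar proton pump subunit ATP6V1B2 rose by 0.64 ± 0.13 (adjusted p = 0.00586). Of 5 measured partner proteins, NEDD4L, a ubiquitin ligase of membrane carriers, rose by 0.98 ± 0.22 (adjusted p = 0.00851). NHERF2, a scaffold that tethers carriers at the apical membrane, fell by 0.67 ± 0.13 (adjusted p = 0.00471), and BSG, the partner of monocarboxylate carriers, fell by 0.41 ± 0.09 (adjusted p = 0.00802).

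Markers of other cells were read from the same fit, in which 20.2% of all genes rose and 11.5% fell. Of 7 fibroblast markers 1 rose and 3 fell, of 6 myoepithelial markers 3 fell, of 5 T cell markers 3 fell, and the measured adipocyte marker FABP4 fell by 1.10. Their summed levels were 12.06 to 12.99 beside 13.13 to 13.59 in controls for fibroblasts, 12.51 to 12.86 beside 12.81 to 13.39 for myoepithelium, 8.42 to 9.09 beside 9.03 to 9.44 for T cells and 11.29 to 11.86 beside 12.59 to 13.02 for FABP4. Of the 10 luminal epithelial markers KRT19 and EPCAM rose and 0 fell, and the share that rose is near that of all genes. Endothelial markers (4) and the measured B cell and plasma cell marker (1) did not pass. The part of these cell types in the carrier changes was not tested.

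**Figure D3:**
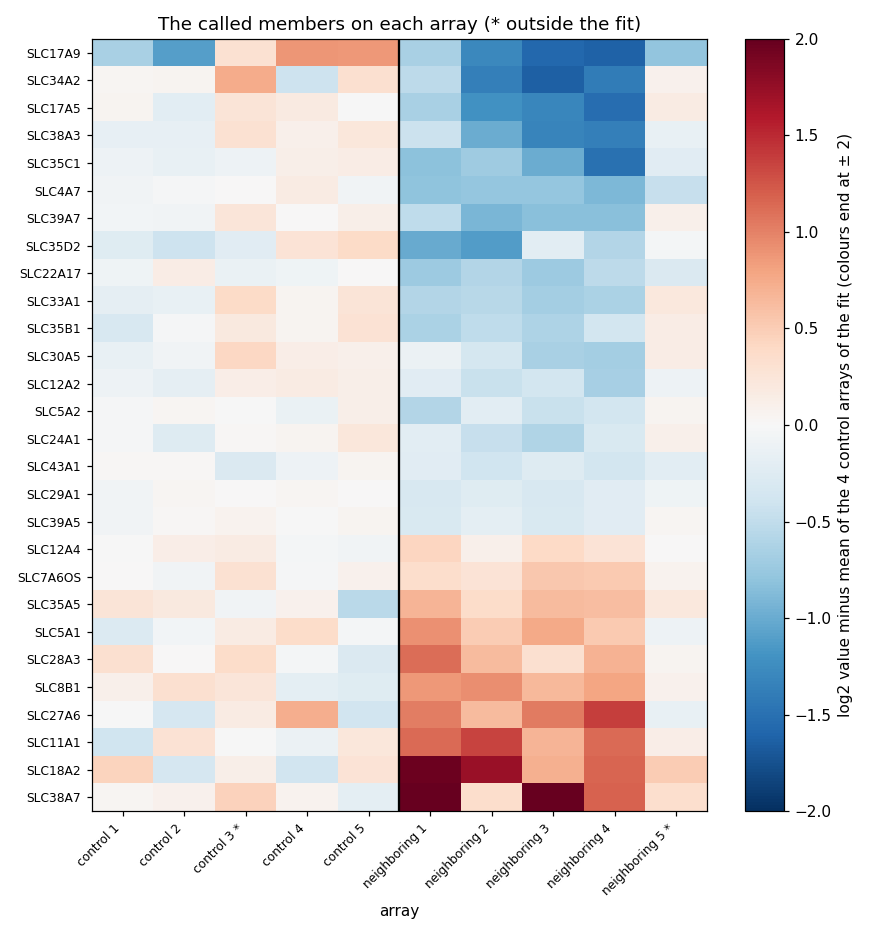
The 28 called solute carrier genes (rows, from the largest fall to the largest rise) on all 10 arrays (columns), coloured by log2 value minus the mean of the 4 control arrays of the fit. Neighboring 1 to 4 carry the changes, while neighboring 5 is near the controls for most genes.

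The array that the study had set aside in the neighboring group stood apart in these genes. For 25 of the 28 called members neighboring 5 lay nearer to the control mean than to the neighboring mean, and for 20 it lay within the range of the 4 control arrays. It deviated in the direction of the neighboring group in 17 members, and its deviation had a median of 8.2% of the change (-33.8% to 68.4%). Control 3 was nearer to the controls in 24 of the 28 members, at a median of -1.1%. Since these genes were called without both arrays, the values describe the arrays and test nothing. With neighboring 5 put back, 6 of the 28 calls remained, and with control 3 put back, 26 did. Between all 5 and all 5 arrays, 7 members did not overlap, beside 7.54% of all genes: SLC18A2 was higher, and SLC4A7, SLC29A1, SLC29A3, SLC35C1, SLC22A17 and SLC45A1 were lower. That number is near what all genes show.

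**Figure D4:**
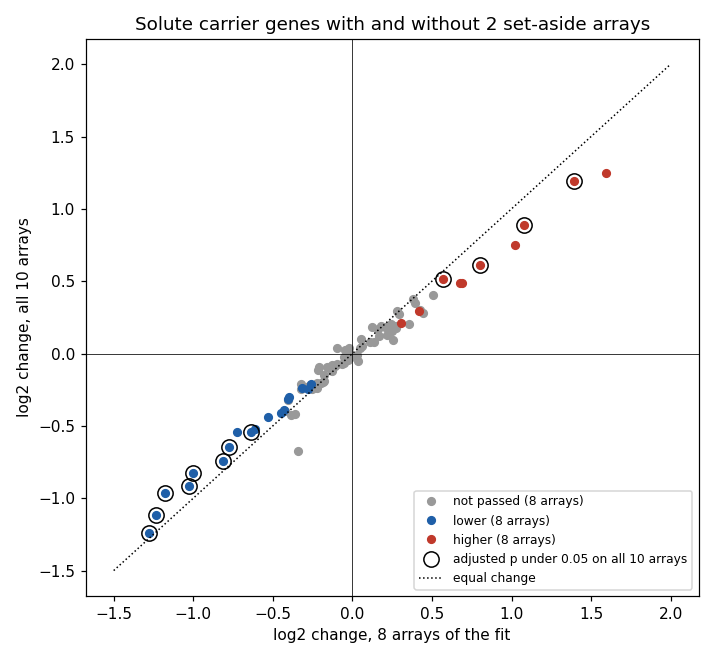
Log2 change of the 88 measured solute carrier genes on the 8 arrays of the fit (x axis) and on all 10 arrays (y axis), with circles around the 12 genes that passed on all 10. Called genes lie nearer to 0 on the y axis than on the dotted line of equal change.

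The 53 members under the filter had mean values of 1.43 to 5.70. When no probe set was left out, 7 of them had an adjusted p under 0.05. The largest changes among these, named after their values were seen, were SLC6A9, a glycine carrier (1.03 ± 0.24, adjusted p = 0.0142, but -0.34 with an adjusted p of 0.0444 on its other probe set), SLC6A20, a proline carrier (0.95 ± 0.18, adjusted p = 0.00526), SLC6A4, the serotonin carrier (-0.79 ± 0.18, adjusted p = 0.0117), and SLC13A3, a dicarboxylate carrier (-0.75 ± 0.13, adjusted p = 0.00367). Their values were below the filter level of 5.71 on average, where RMA compresses changes. Among the 22 members with more than 1 probe set above the filter, 0 called genes had another probe set called in the opposite direction.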

How the data were processed

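Tissue RNA of 10 cows was hybridized to 10 arrays. Values as deposited by the authors are log2 RMA intensities, 1 per probe set (background correction, quantile normalization over arrays, summary over probes), with no RMA version given in the sources used here. This scaling hides a change shared by most transcripts. Arrays were grouped by title and description. The source field of the controls repeats the wording of the neighboring group and was not used. No pair of arrays held identical values. The number of arrays limits the precision.

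From these values, limma 3.58.1 in R 4.3.3 (lmFit, eBayes, Benjamini-Hochberg) compared 4 neighboring with 4 control arrays, as the methods of the study do. In place of present calls, a filter removed the dimmest 40% of 24016 probe sets, those whose 10 arrays averaged under 5.71. The 14409 others were fitted, and p-values were adjusted over all of them. Means, SD and SE are on the log2 scale, and each adjusted p comes from limma. The 112 array controls were left out of gene counts. Gene names come from probe sets that have 1 symbol in the platform annotation (13292, of which 13265 matched the reference table; 86 had several symbols and 10638 none). A gene was represented by its brightest kept probe set.

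Named genes were the members past the thresholds of the study, up to 4 called members per substrate group, a list of transporters known from the gland, and up to 3 called genes per partner list. Of that transporter list, SLC26A2, SLC30A4 and SLC40A1 were not analysed here. Members, lists and substrate groups were chosen with earlier results of these data known. Substrate groups follow the family number, so a group can hold carriers of other solutes. Replicate numbers did not pair the arrays (correlations of deviations -0.026, -0.026 and -0.049). Alternatives covered the arrays entered, filter, scaling, variance model, hybridization controls (18 probe sets), replicate block and probe set choice. A planned promoter search was not run.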

Additional observations from a re-analysis of the deposited data

Results flagged for a closer look

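In 70 groups of 5 arrays (35 named members, both conditions) the highest or lowest array was compared with the rest by its gap. In 2 groups an array stood far from the others, neighboring 5 each time. For independent groups, chance gives about 1 in 20. The 70 groups share arrays, and 28 of the 35 genes were called without neighboring 5, so 2 of 70 cannot be weighed against that rate. Both genes concerned were called in the fit that left out neighboring 5. SLC33A1 was 8.60 in neighboring 5, beside 7.72 to 7.84 in the other 4 neighboring arrays. SLC4A7 was 9.10 in neighboring 5, beside 8.66 to 8.78 in the other 4.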

How the results depend on the processing

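The fit gave 10 members higher, 18 lower and 6 past the thresholds of the study. On all 10 arrays these counts were 4, 8 and 0 (4 members were over 2-fold at an unadjusted p under 0.05 in limma), with neighboring 5 put back 3, 3 and 0 (3 members), and with a covariate for the spiked-in hybridization controls 0, 2 and 0 (8 members). The spiked-in controls nearly separate the groups, so the fit with that covariate cannot tell their part from that of the group. With the replicate number as a replicate block the counts were 6, 7 and 2. The replicate numbers join different cows, and numbers 3 and 5 each had only 1 array in that fit. Leaving out 1 array gave 8 to 11 higher, 9 to 19 lower (9 without control 5) and 2 to 5 past the thresholds (2 without control 5 or without neighboring 4), and 17 of the 28 calls held in all 8 such fits. Array weights, control 3 put back, no filter, the lowest 20% left out, cyclic loess, median centring, an intensity trend, robust variances and other choices of probe set left each of the 3 counts within 1.5 times. Over 770 alternatives for the 35 named members, 620 kept direction and side of the threshold, 146 no longer passed, 4 newly passed and 0 reversed. The cause of the differences was not tested. Signal near background limits the 53 members under the filter, and 4 arrays per group limit small changes.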
